A study of Mus musculus with 3 samples.

Results

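Dermal fibroblasts of mouse back skin were chosen by a rule on the counts of single cells. A cell was a member when Dcn, Col1a1, Col1a2, Col3a1 and Lum together made up at least 1% of its UMIs, when Krt14 and Krt5 made up under 0.2%, and when fewer than 4 of 9 dermal papilla genes (Crabp1, Corin, Rspo3, Hhip, Slc26a7, Enpp2, Pappa2, Inhba and Ndnf) were detected. A UMI is a molecular tag that counts each captured transcript once per molecule, at its 3ʹ end. The rule found 91 of 3502 cells at 6 months and 188 of 3240 cells at 12 months, 279 members among the 8851 cells of the whole series. The same limits found 0 of 2109 cells at P38, which allows a share of up to 0.142%, so the fibroblasts are described at 6 and 12 months.

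The libraries came from untreated wildtype back skin, with 1 library for each of P38, 6 months and 12 months, prepared with the 10X Genomics 3ʹ version 3 chemistry. The 6 months mouse was female with mostly growing (anagen) follicles, and the 12 months mouse was male with resting (telogen) and growing follicles. The methods describe a sort of Krt14-H2B-GFP skin for epithelial cells after subcutaneous fat was cut away, and elsewhere an enrichment that also kept GFP-negative cells of the dermis, while the labels describe dissociated skin with no sort. Age, sex, hair cycle stage, library and recovery of dermal cells therefore cannot be told apart here. With 1 library per age no test across ages was possible, no p-value is given, and all intervals cover counting error only.

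Fibroblasts are the connective tissue cells that secrete and remodel the collagens, proteoglycans and elastic fibres of the dermis. They differ by depth and by place: adventitial cells around vessels carry Pi16 and Dpp4, papillary cells lie below the epidermis, reticular cells lie deeper, and the dermal sheath wraps the hair follicle next to the papilla, the cluster of mesenchymal cells that instructs hair growth. They also release chemokines, complement proteins and growth factors.

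The median depth of the members was 8620 UMIs and 2662 genes at 6 months and 11040.5 UMIs and 2868 genes at 12 months, 819867 and 2217066 UMIs in all. The 5 matrix genes of the rule took a median of 5.68% of a member's UMIs at 6 months (range 1.07 to 22.2%) and 9.94% at 12 months (1.01 to 30.8%). Just inside that limit, between 1 and 1.5%, were 4 and 10 members, and just outside, between 0.5 and 1%, were 13 and 20 cells. These shares were fixed by the rule and the limit crossed a run of cells without a gap. Among T cells of the same libraries, which should lack these transcripts, the highest share was 0.0677% at 6 months and 0.0253% at 12 months. The 6 months and 12 months libraries shared 136 cell barcodes, and 0 fibroblasts lay on them. Xist, the RNA that silences an X chromosome in females, had 691 UMIs in fibroblasts at 6 months and 0 at 12 months, and the Y-linked Ddx3y had 0 and 354.

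Of the markers given for the label, Dcn, Col1a1 and Lum are genes of the rule, so their detection follows from the choice of the cells, while Pdgfra, Pi16 and Clec3b were not used by it. Dcn, the small proteoglycan decorin that binds collagen fibrils, had at least 1 UMI in 100% of the fibroblasts at 6 months and in 99.5% at 12 months, against 5.36% and 4.17% of T cells, whose median depths were 4484.5 and 4872.5 UMIs. Lum, another such proteoglycan, was found in 94.5% and 92.6% of fibroblasts and in 0% and 8.33% of T cells. Pdgfra, a growth factor receptor of mesenchymal cells, was found in 75.8% and 62.8%. Pi16, a peptidase inhibitor of adventitial cells, was found in 85.7% and 66.5%, and Clec3b, the plasminogen-binding protein tetranectin, in 81.3% and 85.6%. With each cell thinned to 1000 UMIs, which left out 1 and 2 fibroblasts, Pi16 was found in 74.4% and 30.6% and Clec3b in 74.4% and 60.2% of fibroblasts. At 12 months the level of Clec3b was 1369 CPM (UMIs of the gene for each 1000000 UMIs of the class) in fibroblasts and 17.9 CPM in papilla cells.

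**Figure D1:**
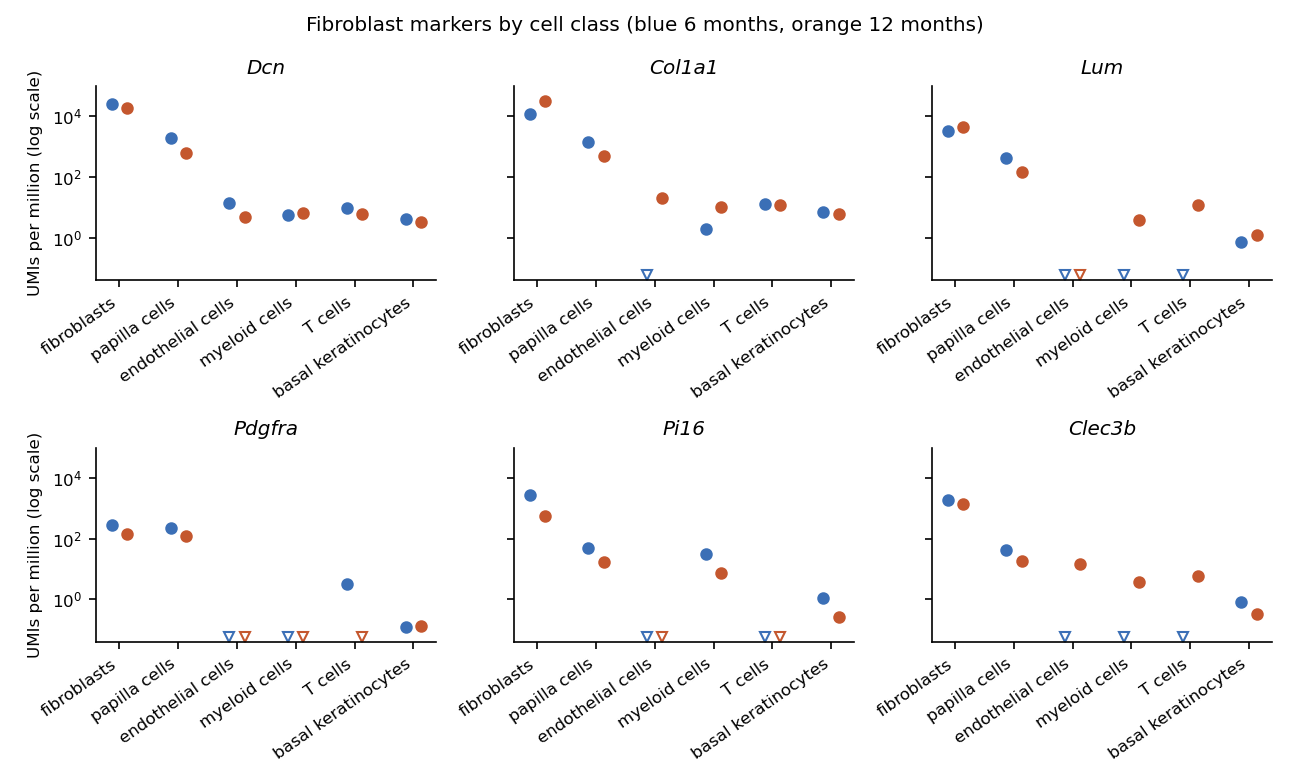
Levels (CPM, log scale) of the 6 marker genes in fibroblasts and 5 other cell classes at 6 months (blue) and 12 months (orange). Filled points are sums over the cells of a class, open triangles mark 0 UMIs, and the exact 95% Poisson intervals of fibroblasts are narrower than the points. Dcn lies at 25610 and 18323 CPM in fibroblasts and below 14 CPM in every class but papilla cells, and Pdgfra is about as high in papilla cells as in fibroblasts.

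Among markers of other lineages, all 6 adipocyte genes were at 0 at 6 months, and 4 of 6, with Adipoq and Cidec among them, at 12 months. The smooth muscle and pericyte genes Rgs5, Myh11 and Cnn1 were at 0 in both libraries, and 12 mural and arrector pili genes summed to 65.9 and 151 CPM. The 8 T cell genes summed to 0 and 35.2 CPM, against 8403 and 8187 CPM in T cells. The 10 myeloid genes summed to 102 and 38.3 CPM. Keratinocyte transcripts were more widespread: the 12 genes summed to 332 and 419 CPM, and 53 of 91 and 124 of 188 fibroblasts held at least 2 of them, while in T cells of the same libraries they summed to 4826 and 11222 CPM. The 16 dermal papilla genes, 9 of which the rule limits, summed to 598 and 381 CPM, against 126 and 20.7 CPM in T cells. The part of these transcripts in the results was not tested.

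Genes other than those of the rule also set the fibroblasts off. All other kept cells had a median depth of 832 UMIs at 6 months and 11452 UMIs at 12 months. Their levels at both ages, here and below, may therefore not compare like cells. Against all other kept cells, 1718 of 8978 tested genes (19.1%) were at least 2-fold higher in fibroblasts of both libraries and 525 (5.85%) at least 2-fold lower. This contrast follows from the choice of the cells and is given as a description. Cpz, a carboxypeptidase of the matrix, led it with 256 CPM at 6 months and 716 CPM at 12 months, and it was at 0.377 and 0.736 CPM in all other cells. Osr2, a transcription factor of limb and palate mesenchyme, was at 220 and 219 CPM against 0.461 and 0.491 CPM elsewhere. Angptl1, a secreted angiopoietin-like protein, was at 174 and 162 CPM, Pcolce2, which speeds procollagen cleavage, at 1051 and 754 CPM, and the imprinted long RNA Rian at 265 and 444 CPM. Cyp2f2 (1089 and 617 CPM), a monooxygenase, and Rarres2 (1737 and 1120 CPM), the precursor of the chemoattractant chemerin, were also among the 15 leading genes. These levels differed between the libraries by less than 2-fold for each of these genes except Cpz.

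At 12 months the fibroblasts held fewer transcripts of several elastic fibre genes and small proteoglycans than at 6 months, and more of Sparc and Ctsk. The collagens of the rule were also higher. Of 8978 genes with at least 20 UMIs in the fibroblasts of both libraries together, 558 (6.22%) were at least 2-fold higher at 12 months and 1098 (12.2%) at least 2-fold lower, with a median log2 ratio of -0.21 over all of them. That split moved with the scaling: with TMM factors (edgeR) 863 genes were at least 2-fold higher and 619 lower, and the median was 0.05. The sum of the 5 matrix genes, which are part of every cell's total, was 64404 CPM at 6 months and 111259 CPM at 12 months, and the median was -0.14 when these genes and mitochondrial genes were left out of the totals. List medians below are to be read against -0.21, and counts of list members against the shares of all genes, 6.22% higher and 12.2% lower.

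**Figure D2:**
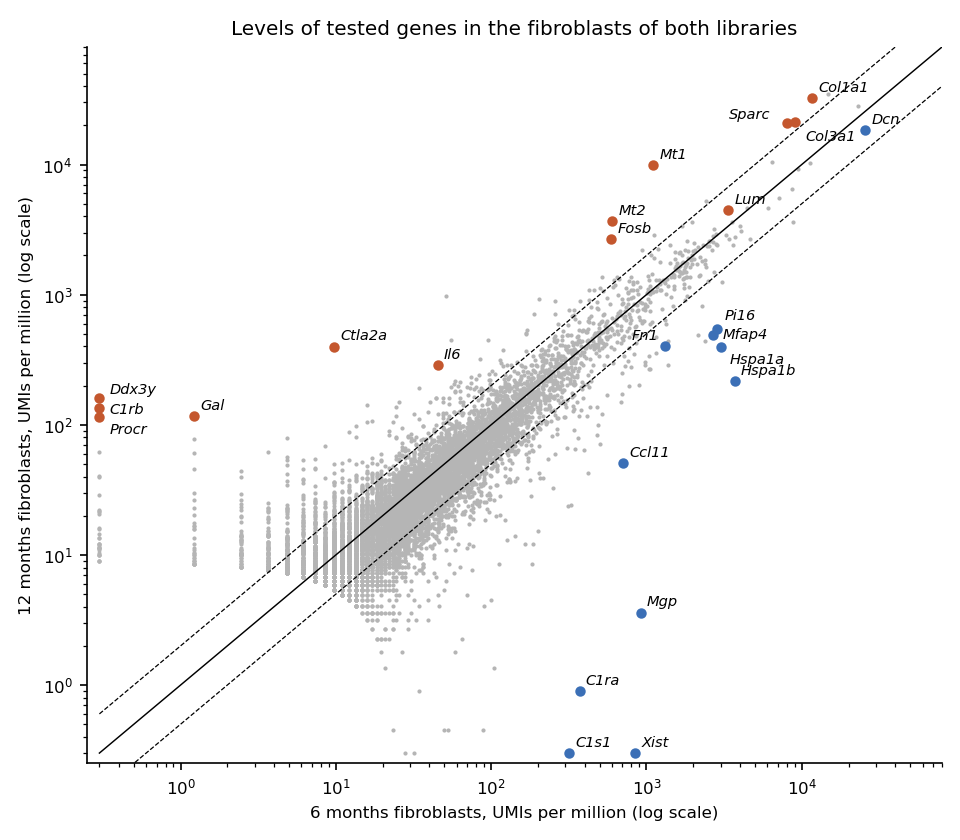
Levels of the 8978 tested genes in 6 months (x axis) and 12 months (y axis) fibroblasts, in CPM on log scales, with 0 drawn at 0.3. The solid line marks equal levels and the dashed lines 2-fold differences. Col1a1, Sparc, Mt1 and Il6 lie above the upper dashed line, while Pi16, Mfap4, Hspa1b, Ccl11 and Mgp lie below the lower dashed line.

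Fibrillar collagens form the rods of the dermis. Col1a1 was at 11718 CPM (95% interval 11485 to 11955) at 6 months and 32451 CPM (32215 to 32690) at 12 months, a log2 ratio of 1.47 (1.44 to 1.5). Across cells its share ran from 0 over a median of 74.2 to 780 UMIs per 10,000 at 6 months and from 6.37 over 280 to 1065 at 12 months, so the ranges overlapped while the medians lay apart. Col1a2, the partner chain, was at 14676 and 34773 CPM and Col3a1 at 9055 and 21229 CPM, both over 2-fold higher. Those 3 genes belong to the rule, so their difference is given as a description. Outside the rule, the fibril-nucleating chains Col5a1 (437 and 689 CPM, log2 ratio 0.66) and Col5a2 (734 and 1126 CPM, 0.62) were higher by less than 2-fold, and Col5a3 was at 137 and 66.8 CPM. Of these 4 tested members outside the rule (Col11a1 being the other), 0 were at least 2-fold higher and 1, Col5a3, was at least 2-fold lower, which it was not with TMM factors. Their median was -0.17, and that of all 7 was 0.66. The 16 other collagens had 12 tested members with a median of -0.21, 0 of them at least 2-fold higher and 2 (Col12a1 and Col14a1) at least 2-fold lower, and that median was 0.05 with TMM factors. Col14a1 lay mostly in the Mgp sub-cluster of 6 months described further on, with 47 of its 50 UMIs, and its log2 ratio was 0.96 without those cells.

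Sparc, a collagen-binding glycoprotein that is no gene of the rule, was at 8083 CPM at 6 months and 20787 CPM at 12 months, a log2 ratio of 1.36 (1.33 to 1.40). Ctsk, the collagen-degrading protease cathepsin K, was at 1123 and 2873 CPM (1.35, 1.25 to 1.46), and Mmp3, stromelysin, at 188 and 706 CPM. Among 20 tested genes of collagen processing, 1 was at least 2-fold higher, the prolyl hydroxylase P4ha2 (48.8 and 161 CPM), and 2 were lower, the oxidase Loxl1 (339 and 91.1 CPM) and the lysyl hydroxylase Plod2 (12.2 and 4.51 CPM). Plod2 had 10 UMIs at each age, and its ratio turned to 0.54 with thinned cells and to 0.79 without the Mgp sub-cluster. Serpinh1, the collagen chaperone, was at 1630 and 2073 CPM. The list's median was 0.14, and 0 of 16 secretory pathway genes were past 2-fold in either direction (median -0.01, which was 0.25 with TMM factors).

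Of 17 tested elastic fibre genes, 7 were at least 2-fold lower and 2, Mfap2 and Fbn2, at least 2-fold higher. Fbn2 was not higher without the 22 cells of the Egfl6 sub-cluster described further on. The median was -0.73, or -0.47 with TMM factors. Mfap4, a microfibril-associated protein, was at 2669 CPM at 6 months and 488 CPM at 12 months, a log2 ratio of -2.45 (-2.56 to -2.35). Its median over cells was 17.1 UMIs per 10,000 at 6 months and 0.634 at 12 months, with highest cells at 138 and 92.9. Fbn1, the main fibrillin, was at 1320 and 635 CPM, Efemp1 at 1153 and 476 CPM, and Eln, elastin itself, at 816 and 502 CPM, the last by less than 2-fold.

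Small leucine-rich proteoglycans, which space collagen fibrils, had 5 of 10 tested members at least 2-fold lower and 1 at least 2-fold higher, with a median of -0.90. Dcn was at 25610 CPM at 6 months and 18323 CPM at 12 months (log2 ratio -0.48, -0.51 to -0.46), Lum at 3346 and 4482 CPM (0.42, 0.36 to 0.48) and Bgn at 2182 and 1391 CPM. Ogn, osteoglycin, was at 689 and 149 CPM and Fmod, fibromodulin, at 310 and 65.8 CPM. Fmod was found in 12 and 7 cells, 251 of its 254 UMIs at 6 months and all 146 at 12 months lay in the Coch sub-clusters, and its log2 ratio was 0.11 when fewer than 2 papilla genes were allowed. Aspn, asporin, was the member past 2-fold in the other direction, at 428 and 909 CPM. With TMM factors 4 members of the list were lower and 2 higher, with a median of -0.64.

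Among 18 tested matricellular and adhesive glycoproteins, 4 were at least 2-fold higher and 7 at least 2-fold lower (median -0.55). With TMM factors 5 were higher and 5 lower (median -0.29), so the surplus of lower members depended on the scaling. Fn1, fibronectin, was at 1317 CPM at 6 months and 404 CPM at 12 months, and Postn, periostin, at 700 and 171 CPM. The widest gap of the list was that of Mgp, a calcification inhibitor, with 918 and 3.61 CPM. It rested on few cells: Mgp was found in 10 of 91 fibroblasts at 6 months, of which 5 held 98.1% of its UMIs, and in 3 of 188 at 12 months. Timp3, a metalloproteinase inhibitor held in the matrix, was found in most cells of both libraries and was at 1383 and 287 CPM.

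**Figure D3:**
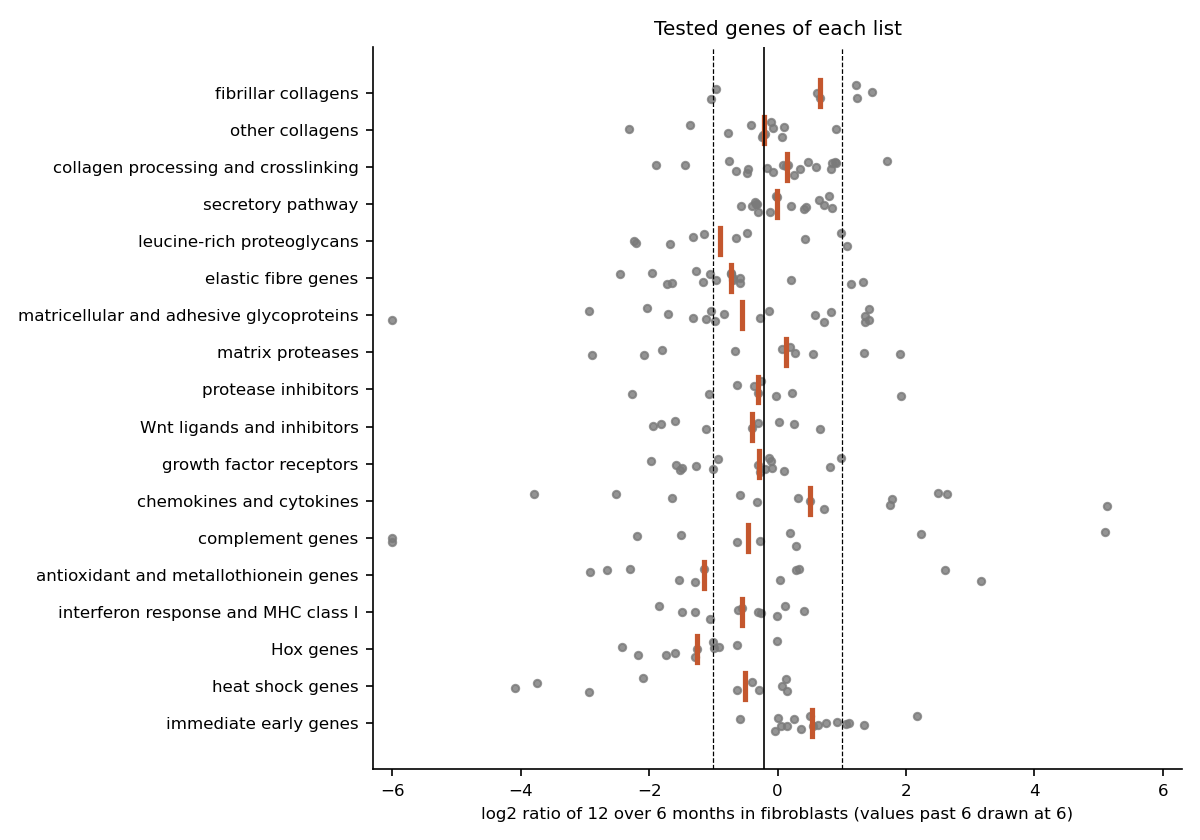
Log2 ratio of 12 over 6 months in fibroblasts for the tested genes of 18 lists, 1 point per gene, with values past 6 in either direction drawn at that limit. Thick bars are list medians, the solid line is the median of all tested genes (-0.21) and dashed lines mark 2-fold. Fibrillar collagens, 3 of 7 of them genes of the rule, and immediate early genes have medians to the right of the solid line, and Hox genes and small proteoglycans to the left of -0.8.

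Pi16 was at 2830 CPM at 6 months (2716 to 2947) and 546 CPM at 12 months (516 to 578), a log2 ratio of -2.37 (-2.47 to -2.27). Its median over cells was 21.7 UMIs per 10,000 at 6 months and 2.24 at 12 months, and cells at 0 were found in both libraries. Of 13 tested adventitial markers, 6 were at least 2-fold lower at 12 months, or 4 with TMM factors. Cd55 (362 and 78.9 CPM), which shields cells from complement, and Sema3c (203 and 42.4 CPM), a guidance cue, were among the 6. Dpp4, a peptidase of adventitial cells, was at 54.9 and 73.5 CPM. Procr, the protein C receptor and also a gene of that list, had 0 UMIs at 6 months and 114 CPM at 12 months, at least 31.2-fold higher against a floor of 3 UMIs per library. Of 9 parenchymal markers 2 were higher and 2 lower, of 9 papillary markers 0 were higher and 1 was lower (Apcdd1, a Wnt inhibitor, 768 and 200 CPM), and of 5 reticular markers 1 was higher and 3 lower. In lists of this size 1 lower member is near the share of all genes. Thy1, a surface glycoprotein of that last list, was at 1045 and 338 CPM.

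Signalling genes are given beside the 12.2% of all genes that were lower and the 6.22% that were higher. Of 9 tested Wnt ligands and inhibitors, 4 were at least 2-fold lower (Dkk2, Sfrp1, Wnt5a and Apcdd1) and 0 higher, with a median of -0.40. Of 16 growth factor receptors, 5 were at least 2-fold lower and 0 higher (median -0.29), with Tgfbr2, a TGF-beta receptor, at 1050 and 268 CPM. Of 17 growth factors and binding proteins, 6 were lower and 1 was higher, Igfbp3 (52.5 and 111 CPM). With TMM factors the counts of lower and higher members were 3 and 0 for the Wnt list, 5 and 2 for the receptors and 5 and 2 for the growth factors. Of 12 BMP and TGF-beta ligands and antagonists, 3 were lower and 1, the decoy receptor Bambi, was higher. Of 12 tested adhesion receptors 3 were lower and 1, the hyaluronan receptor Cd44, was higher. With TMM factors 0 BMP and TGF-beta genes were lower and 1 was higher, and 2 adhesion receptors were lower and 1 was higher.

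Of 11 tested Hox genes, which record position along the body, 7 were at least 2-fold lower at 12 months and 0 higher, with a median of -1.26, or -1.0 with TMM factors. Hoxc10, a gene of posterior segments, was at 107 CPM at 6 months and 19.9 CPM at 12 months, and was found in 33.0% and 15.4% of fibroblasts and in 1.79% and 0% of T cells. Hoxc8, a thoracic gene, was at 148 and 78.9 CPM. Of 24 mesenchymal transcription factors 3 were lower and 2 higher, and Twist1, Prrx1 and Osr2 were within 2-fold. With TMM factors 2 were lower and 3 higher.

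Chemokines split. Of 13 tested chemokines and cytokines, 5 were at least 2-fold higher at 12 months and 3 at least 2-fold lower. Il6, an inflammatory cytokine, was at 45.1 CPM at 6 months and 286 CPM at 12 months (log2 ratio 2.64, 2.18 to 3.18), with UMIs in 16.5% and 37.8% of fibroblasts and in 0% and 4.17% of T cells. Ccl2, a monocyte attractant, was at 257 and 891 CPM, and the 5 highest cells held 64.5% and 43.9% of its UMIs. Ccl11, the eosinophil attractant eotaxin, was at 709 and 51.0 CPM (-3.79, -4.10 to -3.50), found in 70.3% and 21.3% of fibroblasts and in 0% of T cells, and thinned to 1000 UMIs in 47.8% and 4.30%. Cxcl12, which holds stem cells and leukocytes in place, was at 479 and 83.9 CPM (-2.51, -2.77 to -2.26). The other members past 2-fold were Cxcl1, Lif and Cxcl2, higher, and Ccl8, lower. Cxcl1 was found in 8 and 43 cells and Lif in 8 and 30. Cxcl2 had 0 UMIs at 6 months and 47 at 12 months in 4 cells, 45 of them in 2 cells, so its difference rests on those.

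Of 10 tested complement genes 2 were at least 2-fold higher and 4 lower. C1s1, a protease of the classical pathway, was at 316 CPM at 6 months (259 UMIs in 80.2% of cells) and had 0 UMIs at 12 months, at least 233-fold lower against a floor of 3 UMIs. Its longest transcript and that of the related gene C1s2 are alike at the 3ʹ end, where 241 of the last 300 bases aligned at 96.7% identity. Summed, C1s1 and C1s2 were at 316 and 1.80 CPM, a log2 ratio of -7.45 (-9.34 to -6.08). Whether reads were divided between C1s1 and C1s2 was not tested. C1ra, the protease that cleaves C1s, was at 371 and 0.902 CPM (2 UMIs at 12 months, log2 ratio -8.36, -11.74 to -6.82), and C1rb, its neighbour, at 0 and 134 CPM, at least 36.7-fold higher against the same floor. The longest transcripts of C1ra and C1rb share 98.0% of 2428 aligned bases, but only 8 of their last 300 bases aligned, the end at which UMIs are counted. Whether reads were divided between them was not tested. Summed they were at 371 and 135 CPM, a log2 ratio of -1.45 (-1.69 to -1.22). The genes C1ra, C1s1 and C1rb lie on chromosome 6 of GRCm38, C1ra at chr6:124512405-124523443, C1s1 at chr6:124530345-124542359 and C1rb at chr6:124570294-124581171. The pattern was the same in each of the 4 sub-clusters of a library described further on. Over all other kept cells C1s1 was at 7.16 CPM at 6 months and 0.0273 CPM at 12 months, and over all kept cells at P38 it was at 0 CPM, with C1rb at 4.01 CPM. C3, the central complement protein, was at 794 and 279 CPM and C4b at 95.1 and 451 CPM.

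Metallothioneins, which bind zinc and copper, were higher at 12 months. Mt1 was at 1105 CPM at 6 months and 9905 CPM at 12 months, a log2 ratio of 3.16 (3.07 to 3.26). Per cell it ran from 0 over a median of 4.64 to 56.7 UMIs per 10,000 at 6 months and from 0 over 63.9 to 677 at 12 months. Mt2 was at 603 and 3691 CPM (2.61, 2.48 to 2.75). The same direction was measured outside the fibroblasts: in all other kept cells Mt1 was at 963 and 2655 CPM, and in T cells at 145 and 1051 CPM. The other kept cells were far shallower at 6 months, with a median of 832 UMIs against 11452 UMIs at 12 months. Among the other antioxidant genes, Sod3, an extracellular dismutase, was at 180 and 28.4 CPM and Gpx3, a secreted peroxidase, at 251 and 32.9 CPM. The list of 11 tested antioxidant and metallothionein genes had a median of -1.14, with 2 higher (Mt1 and Mt2) and 6 lower. The lower members were Sod3, Gpx3, Cat, Gstm1, Txnip and Gsn. Gsn encodes the actin-severing gelsolin, so the list is wider than its name.

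The bases upstream of these genes are shown because the pair moved together. They are the 250 bases before the start of each gene in RefSeq (GRCm38.p6), 5ʹ to 3ʹ on the gene's plus strand, at chr8:94178839-94179088 for Mt1 and chr8:94172368-94172617 for Mt2. Capitals mark matches to the core of the metal response element, searched as TGCACNC or TGCGCNC on both strands.
Mt1: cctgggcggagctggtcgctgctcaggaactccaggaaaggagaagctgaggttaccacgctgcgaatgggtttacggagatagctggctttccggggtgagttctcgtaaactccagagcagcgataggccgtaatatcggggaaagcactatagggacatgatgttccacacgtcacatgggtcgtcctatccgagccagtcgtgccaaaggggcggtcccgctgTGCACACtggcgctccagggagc
Mt2: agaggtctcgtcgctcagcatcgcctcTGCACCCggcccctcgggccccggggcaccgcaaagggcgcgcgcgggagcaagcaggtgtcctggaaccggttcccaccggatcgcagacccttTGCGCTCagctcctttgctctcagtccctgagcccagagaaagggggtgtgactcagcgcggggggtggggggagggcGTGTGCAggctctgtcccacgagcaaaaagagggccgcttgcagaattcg
In these windows Mt1 held 1 match and Mt2 held 3. Another annotation (GENCODE) starts Mt1 at chr8:94179082 and Mt2 at chr8:94172664, so the windows sit differently against those starts. Bases outside the windows were not searched, and the counts do not rank the promoters. Of all 32851 promoter windows of that length, 21.4% held at least 1 match and 1.26% at least 3.

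Of the heat shock genes, the inducible pair differed in the other direction. Hspa1b, an inducible chaperone, was at 3690 CPM at 6 months and 216 CPM at 12 months (log2 ratio -4.09, -4.23 to -3.95), and Hspa1a at 3031 and 396 CPM (-2.94, -3.05 to -2.83). They share 99.3% of 2197 aligned bases of their transcripts, but only 10 of the last 300 bases aligned, and whether reads were divided between them was not tested. Summed they were at 6721 and 612 CPM. Of 10 heat shock genes 4 were at least 2-fold lower and 0 higher (median -0.51), Hsph1 and Hspb1 being the others. For Hspb1, 156 of 191 UMIs at 6 months lay in the 14 cells of the Coch sub-cluster, and its ratio was 0.22 in the Igfbp2 pair. Hspa1b was also lower in all other kept cells, at 1632 and 364 CPM, and in T cells, at 743 and 142 CPM. The constitutive Hspa8 was at 1582 and 1752 CPM in fibroblasts. The upstream bases of both genes, on the minus strand of chromosome 17 at chr17:34972157-34972406 and chr17:34959239-34959488, shared 98.8% of 250 aligned bases. Each held 1 match to the heat shock element GAANNTTC, in capitals, a sequence that reads the same on both strands and that 6.69% of all promoter windows held.
Hspa1a: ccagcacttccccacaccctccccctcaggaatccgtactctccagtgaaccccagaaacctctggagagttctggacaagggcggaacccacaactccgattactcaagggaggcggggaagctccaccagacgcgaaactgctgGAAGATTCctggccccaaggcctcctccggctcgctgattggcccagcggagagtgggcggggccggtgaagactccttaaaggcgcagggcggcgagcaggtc
Hspa1b: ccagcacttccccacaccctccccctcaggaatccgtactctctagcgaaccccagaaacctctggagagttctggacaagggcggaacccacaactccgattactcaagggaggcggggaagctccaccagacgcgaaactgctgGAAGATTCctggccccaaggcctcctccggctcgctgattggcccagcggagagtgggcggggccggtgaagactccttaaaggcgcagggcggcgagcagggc

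Immediate early genes, which respond within minutes to stress and to tissue dissociation, were higher at 12 months for 15 of 16 members relative to the median of all genes, 4 of them at least 2-fold (Atf3, Fosb, Fos and Myc). Fosb was at 590 CPM at 6 months and 2672 CPM at 12 months, and Fos at 2431 and 5285 CPM. In all other kept cells Fosb was at 499 and 1646 CPM and Fos at 2310 and 5101 CPM. Mitochondrial genes were within 2-fold for all 13 members, with sums of 51056 and 45989 CPM. These levels moved with the library, and their part in the differences of other genes was not tested.

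MHC class I genes, which present peptides to T cells, were lower at 12 months, with B2m at 3071 and 1254 CPM and H2-K1 at 2275 and 815 CPM. Of 11 tested interferon and MHC class I genes 4 were at least 2-fold lower and 0 higher (median -0.55). With TMM factors 3 were lower and 0 higher. In all other kept cells B2m was at 1255 and 1406 CPM, and in T cells at 2035 and 1075 CPM. Gsn, the actin-severing protein gelsolin, was at 8786 and 3612 CPM in fibroblasts. Gal, the neuropeptide galanin, was at 1.22 CPM (1 UMI) at 6 months and 116 CPM at 12 months (log2 ratio 5.99, 4.08 to 11.9), where 27.1% of fibroblasts and 0% of T cells held it. Cdkn2a, which encodes an inhibitor of the cell cycle, was at 6.1 CPM (5 UMIs) and 38.3 CPM, found in 4.40% and 11.7% of fibroblasts and in 3.57% and 2.08% of T cells, so that the 6 months share lay near that of cells of another type. Of the 11 tested inhibitors of the cycle and p53 targets, 1 was at least 2-fold higher and 1 lower, and Cdkn1a was at 405 and 516 CPM.

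**Figure D4:**
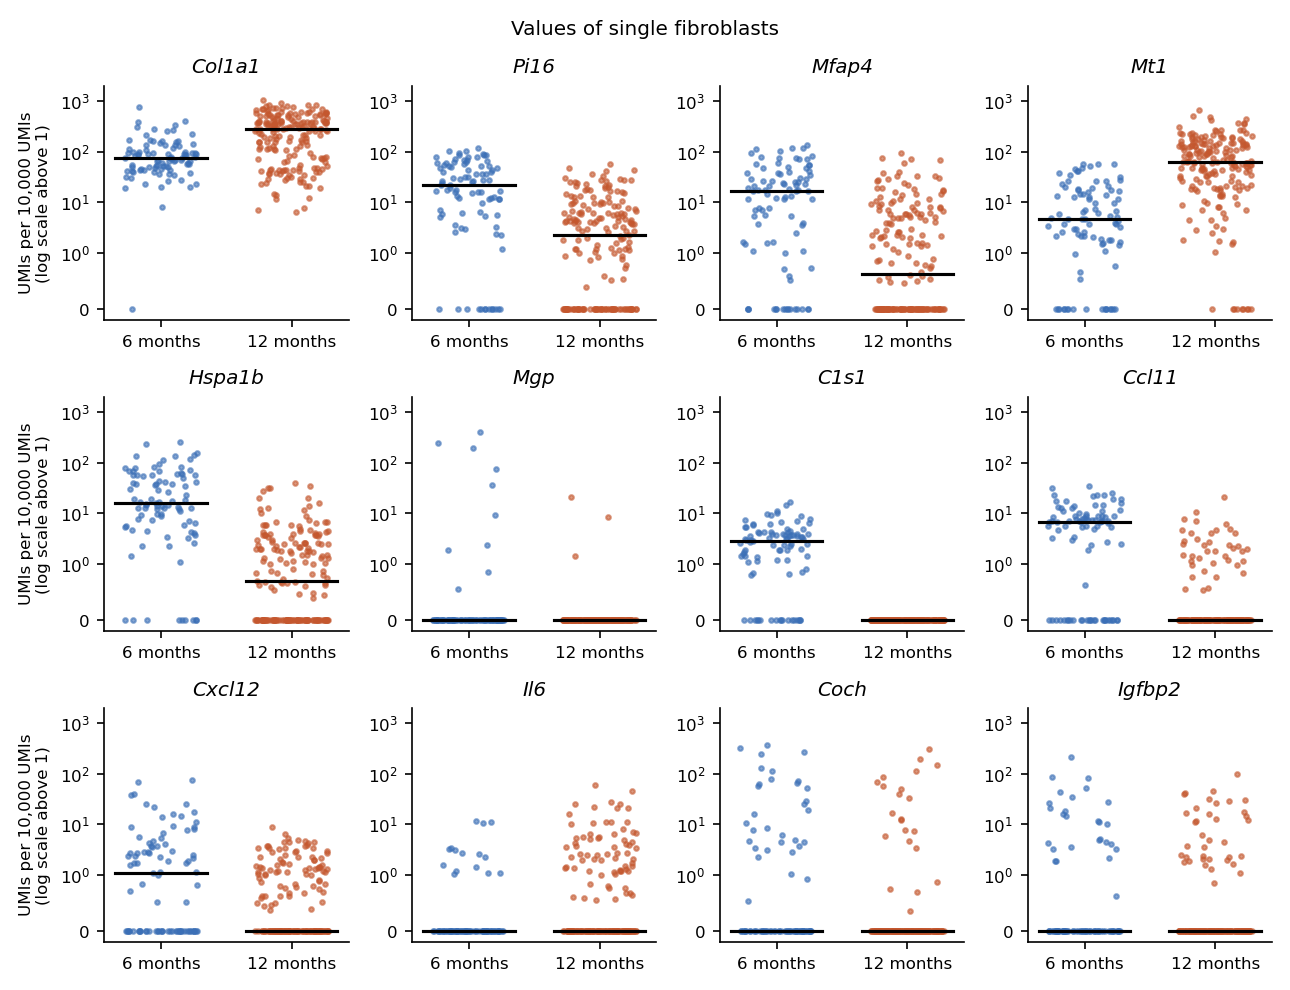
Values of single fibroblasts, 91 at 6 months (blue) and 188 at 12 months (orange), for 12 genes, in UMIs per 10,000 UMIs of the cell on a scale that is linear below 1 and logarithmic above. Black bars are medians over cells, and cells are not replicates. C1s1 is at 0 in every 12 months cell, Mgp is above 0 in 10 and 3 cells, and Coch and Igfbp2 are high in few cells of each library.

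The fibroblasts were not of 1 kind. Leiden clustering of each library on its own gave 4 sub-clusters at 6 months and 4 at 12 months, which are named by leading genes, the genes with the largest fold over the other fibroblasts of the library. Those genes define the clusters and are given as descriptions. At 6 months a cluster of 40 cells was led by Pi15, Mt2, Gdf15, Adamts4 and Ccl2. It held the highest Dcn (37911 CPM), Clec3b (2714 CPM) and Pi16 (4120 CPM) of that library, together with Has1, a hyaluronan synthase (659 against 123 CPM in the others). At 12 months a cluster of 65 cells was led by Ccl7 (3134 against 85.3 CPM), Stat5b and Ccl2 (1970 against 196 CPM), with Fgl2, Ifi205 and the leukaemia inhibitory factor Lif. Of the 50 leading genes of each, these clusters shared 14, with Pi15, Mt1, Mt2, Ccl2, Il6, Has1, C4b and Tnfaip6 among them. Every other pair of clusters from both libraries shared at most 4.

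A cluster of 14 cells at 6 months was led by Fmod, Coch (14626 against 136 CPM) and the retinoid-binding gene Crabp1, and held the tendon genes Kera and Tnmd. At 12 months a cluster of 52 cells was led by Coch (2060 against 1.15 CPM), Cyp1b1, Tnmd (609 against 40.7 CPM) and Dkk2. Coch was found in only 38.5% of those 52 cells and Tnmd in 76.9%. Both clusters shared Coch, Crabp1, Gldn and Tnmd among their 50 leading genes. Coch encodes cochlin, a matrix protein, and was found in 32 of 91 cells at 6 months and 22 of 188 at 12 months, where 5 cells held 77.9% of its UMIs in each library. Crabp1 is 1 of the 9 papilla genes of the rule, so its level in fibroblasts is limited by their choice.

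A cluster of 11 cells at 6 months was led by F13a1, Igfbp2 (5954 against 171 CPM), Kcnk2 and Dio2. At 12 months a cluster of 49 cells was led by Igfbp2 (1055 against 54.8 CPM) and the keratin gene Krt15. Igfbp2 was found in 100% of the 11 cells but in only 40.8% of the 49. Of their 50 leading genes both clusters shared only 2, Igfbp2 and Sema3a, a guidance cue. The 6 months Coch cluster and the 12 months Egfl6 cluster described below, which are not paired here, shared 3. The 12 months cluster also held more Krt14 (131 against 36.7 CPM) and Krt5 (93.3 against 22.3 CPM) than the other fibroblasts, which are keratinocyte transcripts, and the T cells of that library held both at a sum of 4262 CPM.

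A further cluster of 26 cells at 6 months was led by Mgp (2782 against 0 CPM, in 38.5% of its cells), Adamts18, Col14a1, Timp1 and Cxcl12 (1215 against 117 CPM). It had no clear counterpart at 12 months, where its 50 leading genes shared 3 with those of the Coch cluster and 0 with the other clusters. Conversely, 22 cells at 12 months were led by Egfl6 (154 against 0 CPM), Acta2, Tnn, Pclaf, Sox18, Stmn1 and Acan. From the smooth muscle and matrix markers Acta2 (195 CPM), Tagln (97.4 CPM), Myl9 (210 CPM), Tpm2 (358 CPM) and Acan (84.8 CPM) they were called dermal sheath-like. Acta2, Tagln and Myl9 are also markers of mural and arrector pili cells. The papilla markers Sox18 (110 CPM) and Sox2 (15.7 CPM) were at 0 in all other clusters, while the papilla genes Corin and Hhip were at 0 in these cells too. The name was not tested against these other cell types. Acta2 was found in 27.3% of these 22 cells. Their leading genes also held the DNA replication genes Pclaf, Spc24 and Uhrf1, and Top2a was at 232 CPM against at most 2.11 CPM in the other clusters of that library. Dcn (1819 CPM), Pi16 (37.7 CPM) and Clec3b (18.8 CPM) were lowest in them, and their median matrix share of 1.57% lay close to the 1% limit, so the label of dermal fibroblast fits them least.

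**Figure D5:**
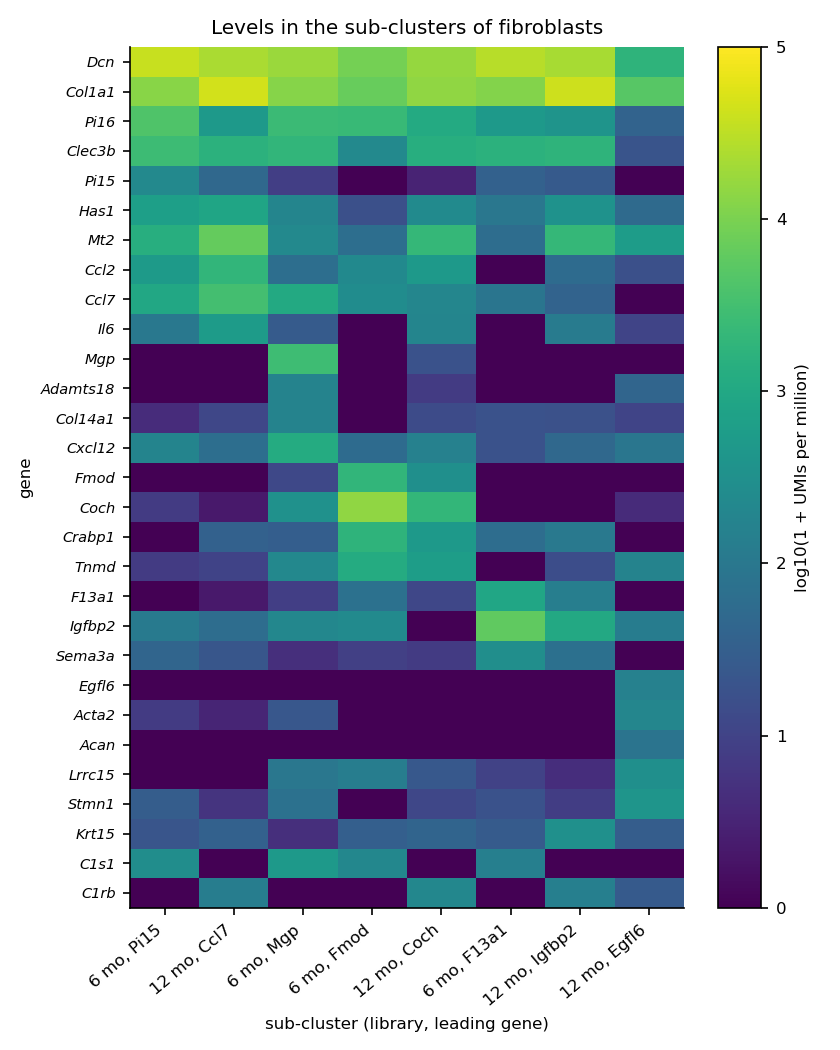
Levels of 29 genes, as log10 of 1 plus CPM, in the 8 sub-clusters of fibroblasts, each named by its library and leading gene, with clusters that share leading genes side by side. C1s1 is above 0 in all 4 clusters of 6 months and at 0 in all 4 of 12 months, while Mgp, Coch, Igfbp2 and Egfl6 mark single clusters or pairs.

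The sub-clusters bear on the differences between the ages. Clusters were paired by shared leading genes, 14 for the Ccl2 pair, 4 for the Coch pair and 2 for the Igfbp2 pair. Each pair is named by a leading gene that not every one of its cells held. Whether a pair holds the same kind of cell at both ages was not tested. Within the pair that shared Ccl2 and Mt2, Col1a1 was at 13198 CPM at 6 months and 46396 CPM at 12 months, Mt1 at 2227 and 17877 CPM, Ccl11 at 1136 and 88.6 CPM and Hspa1b at 3688 and 77.1 CPM. Within the Coch pair Col1a1 was at 6975 and 14842 CPM, Mt1 at 102 and 5534 CPM and Hspa1b at 4580 and 461 CPM. Within the Igfbp2 pair Mt1 was at 501 and 6013 CPM and Hspa1b at 2160 and 223 CPM. Pi16 was lower at 12 months in the Ccl2 pair (4120 and 502 CPM), in the Coch pair (2325 and 1155 CPM) and in the Igfbp2 pair (509 and 389 CPM). Other differences turned within a pair. In the Coch pair, with 14 and 52 cells, the log2 ratio of 12 over 6 months was 0.79 for Fbn1, 3.11 for Efemp1, 1.01 for Fn1, 1.62 for Gsn, 0.36 for Tgfbr2 and 5.76 for C3, all lower at 12 months over all fibroblasts, and -0.47 for Aspn, which was higher over all of them. In the Ccl2 pair Fos had a ratio of -0.86 and the 16 immediate early genes a median of -0.58. Cxcl12 was not lower in every pair, with 55.0 and 159 CPM in the Coch pair and 17.6 and 48.5 CPM in the Igfbp2 pair. Postn was at 0 and 26.9 CPM in the Igfbp2 pair. Outside the 26 cells of the Mgp sub-cluster, of which 38.5% held Mgp, 0 UMIs of Mgp were counted at 6 months.

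Pi16 was also used to split the fibroblasts. It was found in 78 of 91 cells at 6 months (85.7%, exact 95% interval 76.8 to 92.2%) and in 125 of 188 at 12 months (66.5%, 59.3 to 73.2%). Median depth was 8912.5 UMIs in cells with Pi16 and 5861 in the 13 cells without it at 6 months, and 10782 and 12154 UMIs at 12 months. Of 5139 genes tested in both libraries, 42 (0.817%) were at least 2-fold higher in cells with Pi16 in both and 56 (1.09%) at least 2-fold lower. Higher genes were Coch (2670 against 366 CPM at 6 months and 614 against 117 CPM at 12 months), Mfap4 (2913 against 930 and 667 against 155 CPM), Cd248, a surface protein of stromal cells, and Gsn. Lower genes were Lrrc15 (34.8 against 188 and 9.02 against 129 CPM), a surface protein of matrix-depositing cells, Igfbp3, Igfbp2 and Cdk4. Coch, Igfbp2 and Lrrc15 were also leading genes of sub-clusters, so the split and the sub-clusters share genes. Dcn was within 2-fold, at 26393 against 20047 CPM and 21091 against 13181 CPM.

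At 12 months the fibroblasts could be set beside dermal papilla cells. The papilla class with the matrix limit of the rule held only 4 cells at 12 months, so 213 cells with at least 4 of the papilla genes and any matrix level were used, a class chosen after the data had been seen. Of 9755 tested genes, 1088 (11.2%) were at least 2-fold higher in fibroblasts and 1901 (19.5%) at least 2-fold lower, with a median log2 ratio of -0.35. Median depth was 11040.5 UMIs in fibroblasts and 6654 in papilla cells. Papilla genes chose both classes and matrix genes chose the fibroblasts only, so these values are a description.

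Fibroblasts led in secreted defence and matrix genes. C4b was at 451 CPM and had 0 UMIs in papilla cells, Ccl7 was at 1280 against 1.23 CPM, Ccl2 at 891 against 2.47 CPM and Adgrd1, an adhesion receptor, at 218 against 0 CPM. Of 13 chemokines and cytokines 11 were at least 2-fold higher in fibroblasts and 1 lower. Of 17 elastic fibre genes 10 were higher and 0 lower. Of 10 small proteoglycans 9 were higher and 0 lower, but Dcn and Lum, genes of the rule, were among the 9. The higher level of those 2 follows from the choice of the cells. Papilla cells led in Prlr, the prolactin receptor (1108 against 3.16 CPM), Lef1, a Wnt effector (255 against 2.71 CPM), and Spock1 (125 CPM against 0 UMIs). Of 12 Wnt ligands and inhibitors 6 were at least 2-fold lower in fibroblasts and 2 higher, and of 16 growth factors and binding proteins 10 were lower and 4 higher. Mt1 (9905 against 6575 CPM) and Hox gene Hoxc8 (78.9 against 160 CPM) lay closer together, the last just past 2-fold.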

How the data were processed

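The deposited files held raw UMI counts per gene and barcode for 32285 genes. According to the file headers and the submitters' processing notes, the authors mapped reads to mm10 and counted with Cell Ranger (6.0.0 in the headers of 6 and 12 months, 6.1.2 in the notes, and another version in the study's methods); no normalization had been applied, and the study's own filter left fewer cells at 6 months than are kept here. Cells with 201 to 4999 genes and mitochondrial UMIs under 15% were kept. The members, gene lists and named genes were chosen with earlier results of these data known.

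Levels are CPM of UMI sums over each class of cells, and their 95% intervals are exact Poisson ones. Log2 ratios had 0.5 UMIs added to both sums, with exact conditional intervals, over genes with at least 20 UMIs. The calculation was checked on simulated sums with counting error only, so the check did not cover spread between cells. T cells had 3 or more T cell genes; basal keratinocytes had at least 1% Krt14 and Krt5. Named genes were those of the rule, of each list the 4 genes with the highest level and the 1 with the largest ratio, the 15 at each end of each contrast with at least 100 CPM, and the 10 leading genes of each sub-cluster (ranked with 5 UMIs added). Atf3, Col11a1, Col12a1, Col5a1, Col5a3, Dpp4, Fbn2, Gldn, Hspb1, Mfap2, Myc, P4ha2, Plod2, Postn, Prrx1, Sema3c, Sfrp1 and Sod3 were named outside that rule, after their values had been seen.

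Sub-clusters used scanpy 1.11.5 (1000 variable genes, 15 components, 15 neighbours, resolution 0.5). TMM factors came from edgeR 4.0.16. No doublets were removed, and an alternative left out the cells with the highest Scrublet scores, 133 and 141. Promoter sequences were from RefSeq, and 6 of 6 genes looked up were matched.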

Additional observations from a re-analysis of the deposited data

Results flagged for a closer look

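Barcodes outside the cell filter also met the matrix, keratin and papilla limits, in data that no comparison used. There were 11 of 1259 such barcodes at 6 months (0.874%, exact 95% interval 0.437 to 1.56%) and 22 of 2181 at 12 months (1.01%, 0.633 to 1.52%). All 11 at 6 months and 18 at 12 months had at least 15% mitochondrial UMIs, with medians of 28% and 26.6%. Dcn was at 12788 and 3962 CPM and Pi16 at 1007 and 47.4 CPM in them.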

How the results depend on the processing

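No paired analysis was possible because each age had 1 library and the labels give no replicate numbers, and no replicate could be left out. At resolutions of 0.3 and 0.8 clustering gave 3 and 5 sub-clusters at 6 months and 3 and 6 at 12 months, against 4 and 4. Some sub-clusters broke up. At resolution 0.8 the lowest share of a sub-cluster kept together was 61.5% at 6 months and 59.2% at 12 months, with medians of 95% and 63.3%. With 10 components the lowest shares were 73.1% and 50%, with medians of 100% and 95.7%. Numbers of fibroblasts stayed within 1.5 times under every alternative run. The counts of genes at least 2-fold apart did not: 558 higher and 1098 lower at 12 months became 863 and 619 with TMM factors, 881 and 604 with median-of-ratios factors, 1322 and 3176 among genes with at least 1 UMI, 204 and 280 among those with at least 100 UMIs, and 163 and 206 with cells thinned to 1000 UMIs. Fewer genes were tested under both last settings. With only the Coch sub-clusters 448 genes were lower and with only the Igfbp2 sub-clusters 671. The comparison with 4 papilla-rule cells (3021 genes apart, 2989 with the added class of 213 cells) gave 698 with at least 100 UMIs and 487 thinned. With the added class, which the report uses, 1088 higher and 1901 lower became 529 and 722 with at least 100 UMIs and 401 and 587 thinned. The Pi16 split (98 genes) gave 54 with a matrix limit of 2%, 16 with at least 100 UMIs and 12 thinned.

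Of the values for single genes and lists, 1905 stayed the same, 619 moved and 40 reversed, and the cause was not tested. Same means within counting error for a single gene and within a fixed distance of the main value for a list median. Settings by sub-cluster were chosen after the data had been seen, and a gene at 0 on one side has a ratio set by the added 0.5 UMIs. The log2 ratio of Fbn2 was -2.01 with a matrix limit of 2%, -0.86 without cells holding markers of other lineages, -1.05 thinned, -1.86 without the Egfl6 sub-cluster, and -1.5, -3.48 and -2.29 in the Ccl2, Coch and Igfbp2 pairs. Fmod was 0.11 with fewer than 2 papilla genes allowed, and Plod2 was 0.54 thinned. Without the Mgp sub-cluster Mgp was 2.07, Col14a1 0.96 and Plod2 0.79. In the Ccl2 pair Col14a1 was 1.17, Col5a3 0.0050 and Fos -0.86. In the Coch pair Mgp was 2.19, Cxcl12 1.44, Aspn -0.47, C3 5.76, Ccl8 1.05, Cd55 0.24, Col14a1 1.81 and Col5a3 1.08. Efemp1 was 3.11 in that pair, Fbn1 0.79, Fn1 1.01, Gsn 1.62, Sema3c 2.29 and Tgfbr2 0.36. The median of the antioxidant and metallothionein list was 1.62 there, which is the value of its member Gsn. In the Igfbp2 pair Cxcl12 was 1.17, Postn 2.66, C3 4.89, Ccl8 0.84, Col12a1 0.88, Cxcl2 -2.29, Gpx3 3.20, Hspb1 0.22, Igfbp3 -1.68 and Sfrp1 0.46.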
